A study of Mus musculus with 32 samples.

Results

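The Hoxd cluster is a run of 9 homeobox genes on mouse chromosome 2, and all 9 (Hoxd13, Hoxd12, Hoxd11, Hoxd10, Hoxd9, Hoxd8, Hoxd4, Hoxd3 and Hoxd1) were followed here, out of 55806 gene identifiers in the deposited tables. They were chosen by name, through their Ensembl identifiers, and not by a cut on their values, but earlier results of these data were known. RNA was sequenced from developing mouse kidneys in which a Cre driver switches 1 endogenous copy of Enl (Mllt1), the gene of a chromatin reader that binds acylated histones, to a Wilms tumor allele. The T1 allele is a small in-frame insertion and T3 a small in-frame deletion, both in the YEATS domain. The 32 libraries form 11 groups. Whole E18.5 kidneys were Six2-TGC tg/+ with Enl+/+ (WT), Enl T1/+ or Enl T3/+ (2 libraries each), or Foxd1 GC/+ with Enl+/+ or Enl T1/+ (3 each). Sorted tdTomato-positive cells came from Six2-TGC tg/+ kidneys at E14.5 and E18.5 (3 WT and 3 T1 each) and from Foxd1 GC/+ kidneys at E18.5 (4 WT and 4 T1). Six2-TGC is a transgene that drives Cre in nephron progenitors, so sorted cells are these progenitors and the nephron cells that descend from them. Foxd1-GC is a knock-in that drives Cre in stromal progenitors and removes 1 working copy of Foxd1. WT groups carried the same driver as their mutants, so the transgene and the loss of 1 Foxd1 copy are shared within each comparison.

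Hox genes encode transcription factors that set position along the body axis, and in each cluster their order on the chromosome follows the order in which they are used. Hoxd13 to Hoxd9 are the posterior members, Hoxd8 and Hoxd4 are central, and Hoxd3 and Hoxd1 are anterior. In the kidney, the Hox11 genes, Hoxd11 among them, are required in nephron progenitors for the outgrowth of the ureteric bud, and the Hox10 genes for the stroma. ENL is known to promote transcription elongation at HOX genes in leukemia.

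In GRCm38, the members lie on the plus strand of chromosome 2 between positions 74668310 and 74765142, a span of 96.8 kb. Hoxd12 starts 6.70 kb after Hoxd13, Hoxd11 11.2 kb, Hoxd10 23.6 kb, Hoxd9 29.4 kb, Hoxd8 36.3 kb, Hoxd3 and Hoxd4 43.6 kb and Hoxd1 94.7 kb. RefSeq gives 10 promoters for the 9 genes. The 250 bases before the start are shown for Hoxd12, the member on which most results below turn, for both of its neighbours, and for Hoxd10 and Hoxd8, with every CG pair in capitals. They are chr2:74667975-74668224 (Hoxd13), chr2:74674763-74675012 (Hoxd12), chr2:74679308-74679557 (Hoxd11, the first of 2 starts), chr2:74691641-74691890 (Hoxd10) and chr2:74704365-74704614 (Hoxd8), all in GRCm38.p6 and on the plus strand.
Hoxd13: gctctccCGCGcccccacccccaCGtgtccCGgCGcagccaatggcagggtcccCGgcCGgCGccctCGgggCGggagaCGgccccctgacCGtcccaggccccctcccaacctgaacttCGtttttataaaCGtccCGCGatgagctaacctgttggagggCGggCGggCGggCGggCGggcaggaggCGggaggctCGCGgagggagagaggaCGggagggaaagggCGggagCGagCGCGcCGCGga
Hoxd12: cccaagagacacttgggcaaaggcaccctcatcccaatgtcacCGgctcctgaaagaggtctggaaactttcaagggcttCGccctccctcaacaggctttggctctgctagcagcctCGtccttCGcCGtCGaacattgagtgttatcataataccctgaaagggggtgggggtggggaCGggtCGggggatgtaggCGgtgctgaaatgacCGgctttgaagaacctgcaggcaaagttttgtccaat
Hoxd11: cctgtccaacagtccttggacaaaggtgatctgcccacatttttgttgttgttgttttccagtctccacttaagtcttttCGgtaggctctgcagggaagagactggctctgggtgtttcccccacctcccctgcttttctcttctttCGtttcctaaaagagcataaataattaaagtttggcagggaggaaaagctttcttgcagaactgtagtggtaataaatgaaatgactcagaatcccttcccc
Hoxd10: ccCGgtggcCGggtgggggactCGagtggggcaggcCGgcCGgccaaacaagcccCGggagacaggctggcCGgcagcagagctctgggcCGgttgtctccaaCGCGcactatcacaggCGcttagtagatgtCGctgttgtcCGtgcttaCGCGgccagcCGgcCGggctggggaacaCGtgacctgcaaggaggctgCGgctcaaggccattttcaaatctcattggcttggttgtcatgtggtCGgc
Hoxd8: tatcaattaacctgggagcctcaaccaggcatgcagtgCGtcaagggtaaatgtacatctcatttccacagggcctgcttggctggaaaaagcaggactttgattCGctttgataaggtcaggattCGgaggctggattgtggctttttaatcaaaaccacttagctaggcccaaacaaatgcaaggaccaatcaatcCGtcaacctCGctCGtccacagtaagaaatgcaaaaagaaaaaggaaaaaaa

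The Hoxd12 stretch held 10 CG pairs, against 31 for Hoxd13, 2 and 20 at the 2 starts of Hoxd11, 20 for Hoxd10 and 6 for Hoxd8. The median over 32851 mouse promoters of this length was 6. The CCAAT box, searched as CCAAT on both strands, was found in 7 of the 10 Hoxd promoters, those of Hoxd12 and Hoxd13 included, and in 33.8% of all promoters. A TATA box, searched as TATAAA on both strands, was found in 2, those of Hoxd13 and Hoxd4, and in 12.4% of all. TTTATNG on both strands, a core bound by caudal and posterior HOX proteins, was found in 1, that of Hoxd4, and in 9.8% of all. These matches are a description of the letters only.

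Libraries held 2557443 to 157266455 counts, and the sorted Foxd1 libraries were the shallowest, at 2557443 to 3508381. Levels are CPM, counts relative to the scaled size of each library, set within each table. Counting ignored strand, so overlapping genes cannot be told apart: 62.8% of the Hoxd3 exon length and 52.3% of that of Hoxd4 lie in exons of other genes, against 10.8% for Hoxd11, 5.73% for Hoxd10 and none for the remaining members. Hoxd4 was listed at 0 in all 24 libraries outside the sorted Foxd1 table, whose gene set differs, and no level is read from those zeros. Enl itself (Mllt1) differed by -0.33 to -0.02 on the log2 scale between mutant and WT groups, and counts per gene do not separate the mutant from the normal allele. Nothing in the labels says that libraries of a group came from separate litters, so p-values measure the spread between these libraries.

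Hoxd12 was the member with the largest log2 fold change in 6 of 6 comparisons of mutants with WT, and it was called higher in each. A gene was called when edgeR's quasi-likelihood test gave a Benjamini-Hochberg adjusted p under 0.05 over all tested genes and the fold exceeded 1.5. Over the same 6 comparisons, of which the 2 in whole Six2 kidneys share their WT libraries, Hoxd11 was called higher in 4, Hoxd10 in 3, Hoxd13, Hoxd3 and Hoxd1 in 2 of the 5 in which they were tested, and Hoxd9 and Hoxd8 in 1. Hoxd4 was tested in 1 comparison and was called higher in it. The single lower call was Hoxd3 in whole Foxd1 kidneys.

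**Figure D1:**
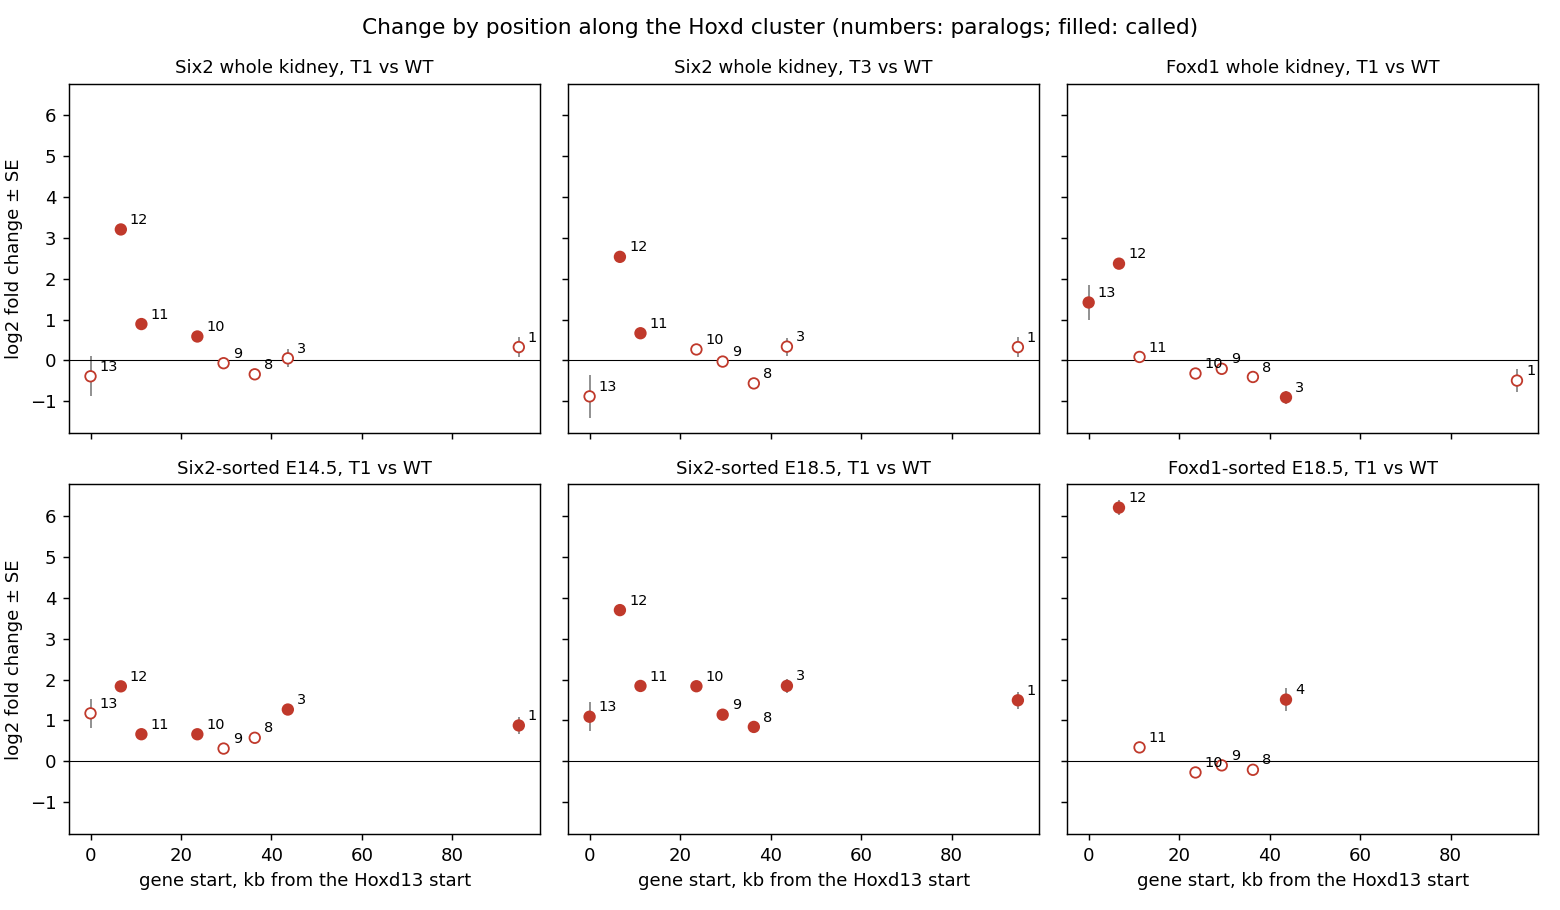
Log2 fold change with its standard error (y axis) of each tested Hoxd gene against the distance of its start from that of Hoxd13 in kb (x axis), in the 6 comparisons of mutant with WT. Filled points were called, numbers name the paralogs, and Hoxd12 is the highest point in every panel.

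In sorted Six2-lineage cells at E18.5, 8 of the 9 Hoxd genes were tested and all 8 were called higher in T1, where 6.14% of all tested genes were called higher and 5.54% lower. The median of the 8 was 1.66 on the log2 scale, and that of all tested genes 0.02. Hoxd12 stood at 6.82, 4.29 and 6.26 CPM in WT and at 68.4, 85.5 and 70.4 CPM in T1. The groups lie far apart, with a log2 fold change of 3.70 ± 0.15 (SE; adjusted p = 3.1e-09, edgeR). Hoxd11, at 47.7, 50.6 and 58.6 CPM in WT, reached 170.2, 203.2 and 186.3 CPM in T1 (1.84 ± 0.09, adjusted p = 1.2e-08 by edgeR). Hoxd10, at 40.8, 44.4 and 52.8 CPM in WT, reached 153.2, 177.9 and 159.0 CPM (1.84 ± 0.09, adjusted p = 2.1e-08 by edgeR). Neither gene overlapped between the groups. From Hoxd12 onwards, the change was smaller towards the middle of the cluster, at 1.14 ± 0.08 for Hoxd9 and 0.84 ± 0.08 for Hoxd8. It was larger again at the anterior end, at 1.84 ± 0.17 for Hoxd3 and 1.49 ± 0.21 for Hoxd1. Hoxd13, at the posterior end, changed by 1.09 ± 0.36, less than Hoxd12. Hoxd3 shares most of its exon length with other genes, so its value is uncertain.

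Hoxd13, the terminal posterior gene, was low in these cells, at 0.42, 1.13 and 1.38 CPM in WT and 1.70, 2.59 and 1.89 CPM in T1. Its log2 fold change of 1.09 ± 0.36 passed the threshold narrowly (adjusted p = 0.049, edgeR). Without WT replicate 1 it was 0.72, with an adjusted p of 0.078 by edgeR, and the call was also lost without WT replicate 2 and without each T1 library in turn. Between the same groups the summed level of 5 red cell markers went from 103.8-210.2 to 1550-2273 CPM and that of 9 nephron markers from 3583-4413 to 554-656 CPM. That of 6 nephron progenitor markers went from 1073-1381 to 392.1-503.3 CPM, of 8 stroma markers from 642-806 to 859-1016 CPM and of 6 macrophage markers from 32.3-35.8 to 59.7-74.7 CPM. Their part in the Hoxd results was not tested.

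At E14.5, the same comparison called 5 of 8 tested members higher, where 4.11% of all tested genes were called higher and 2.28% lower. Hoxd12 was already at 77.3, 85.7 and 71.6 CPM in WT and stood at 277.5, 282.7 and 266.3 CPM in T1. No library overlapped between the groups (1.83 ± 0.07, adjusted p = 5.6e-06 by edgeR). Hoxd11 and Hoxd10 each rose by 0.66 on the log2 scale, with SEs of 0.05 and 0.07. Hoxd3 rose by 1.27 ± 0.14 and Hoxd1 by 0.88 ± 0.21 (adjusted p = 0.03, edgeR). The call of Hoxd1 was lost in 5 of the 6 fits that left out a library, those without any of the 3 T1 libraries or without WT replicate 2 or 3, where its adjusted p by edgeR lay between 0.068 and 0.11. Hoxd8, at 0.57 ± 0.06, stayed just under the fold threshold, and was called without T1 replicate 2 (0.59), T1 replicate 3 (0.60) or WT replicate 1 (0.61). Hoxd9 was at 0.31 ± 0.06. Hoxd13 was at 1.17 ± 0.36 (adjusted p = 0.071 by edgeR's quasi-likelihood test), and was called by DESeq2 (adjusted p = 0.023) and by edgeR's exact test (adjusted p = 0.036). The summed level of 8 stroma markers was 472-630 CPM in WT and 832-1716 CPM in T1. That of 6 nephron progenitor markers, all called lower, went from 1761-2049 to 883-1075 CPM. The part of either in the Hoxd results was not tested.

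**Figure D2:**
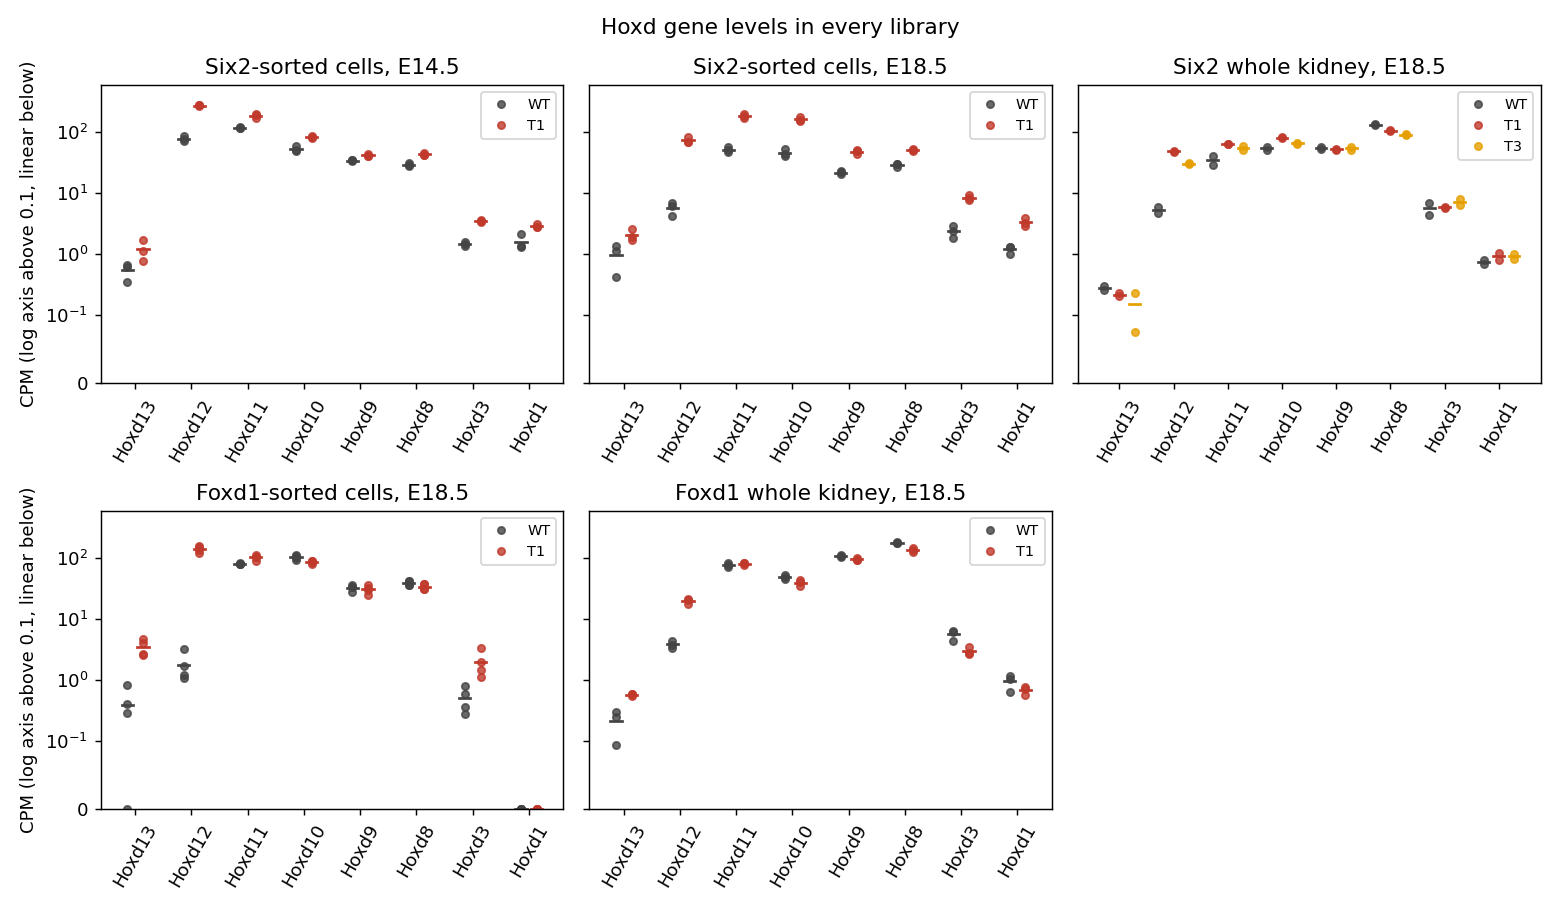
CPM of 8 Hoxd genes (y axis, log scale above 0.1 and linear below) in every library of each sorted or whole-kidney set, ordered from Hoxd13 to Hoxd1. Points are libraries and bars are means; Hoxd12 in T1 lies above WT in every set, while Hoxd9 and Hoxd8 do so in sorted Six2 cells only.

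Between E14.5 and E18.5, WT sorted Six2 cells lost most of their Hoxd12 signal, from a mean of 78.2 ± 7.11 CPM (SD, n = 3) to 5.79 ± 1.33 CPM (n = 3). Development was called at an adjusted p under 0.01 and a fold over 2, a rule by which 20.6% of all tested genes were lower and 24.8% higher in WT. Under it 2 of 8 members fell in WT, Hoxd12 by 3.76 ± 0.14 (adjusted p = 1.2e-11, edgeR) and Hoxd11 by 1.19 ± 0.08 (adjusted p = 6.6e-09, edgeR). None was called higher. Hoxd10 (-0.23 ± 0.09), Hoxd9 (-0.65 ± 0.07) and Hoxd8 (-0.03 ± 0.07) did not pass.

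In T1 cells Hoxd12 fell less, by 1.88 ± 0.13, and ended at 74.8 ± 9.35 CPM (SD, n = 3), beside the 78.2 CPM of WT cells at E14.5. Hoxd11 was at 186.7 ± 12.5 CPM at E14.5 and 186.6 ± 16.5 CPM at E18.5 in T1 (0.00 ± 0.08, n = 3 each). Hoxd3 was the only member called higher with stage in T1, by 1.26 ± 0.16, and Hoxd10 reached 0.96 ± 0.09, short of the fold threshold. In T1, 19.8% of all tested genes were called lower and 24.4% higher. E14.5 cells were dissociated with trypsin and E18.5 cells with collagenase, so stage and dissociation cannot be told apart. Between the stages, the summed level of 9 nephron markers went from 19.0-35.8 to 3583-4413 CPM in WT. In T1 it went from 9.21-12.6 to 554-656 CPM. The sum of 6 nephron progenitor markers went from 1761-2049 to 1073-1381 CPM in WT and from 883-1075 to 392.1-503.3 CPM in T1. The part of these markers in the stage results, and in the stage by genotype term below, was not tested.

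The T1 effect itself differed between stages. The stage by genotype term (adjusted p under 0.05, no fold threshold) was called higher at E18.5 for 4 of 8 members, where 3.94% of all tested genes were, and lower for none (4.22% of all tested genes). It was 1.87 ± 0.18 for Hoxd12, 1.19 ± 0.12 for Hoxd11, 1.18 ± 0.13 for Hoxd10 and 0.84 ± 0.10 for Hoxd9. These 4 genes are neighbours. The term was 0.28 ± 0.09 for Hoxd8, 0.59 ± 0.23 for Hoxd3, 0.63 ± 0.31 for Hoxd1 and -0.08 ± 0.58 for Hoxd13, none of which passed.

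**Figure D3:**
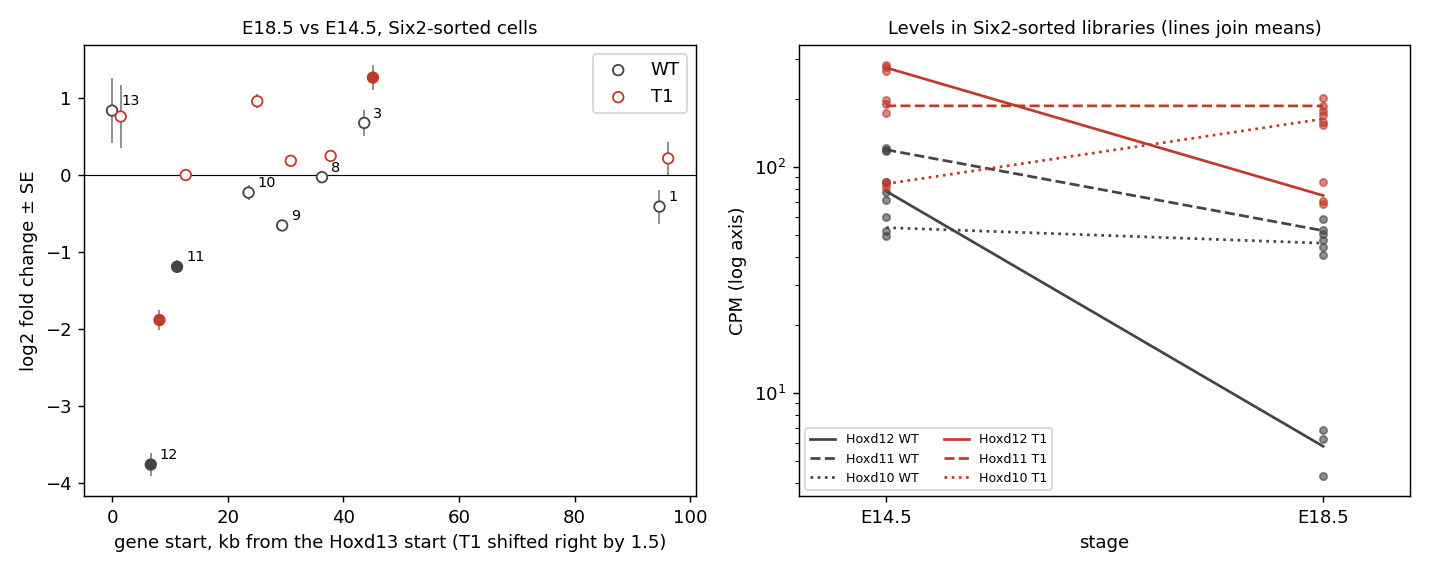
Left, log2 fold change with its standard error from E14.5 to E18.5 in WT and T1 sorted Six2 cells against distance from the Hoxd13 start in kb; filled points were called. Right, CPM (log axis) of Hoxd12, Hoxd11 and Hoxd10 by stage, with points for libraries and lines joining means: Hoxd12 falls in both genotypes and ends 74.8 CPM in T1 against 5.79 CPM in WT.

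In sorted Foxd1-lineage stroma at E18.5, Hoxd12 had the largest change of the tested members. Its counts were 6, 11, 3 and 3 in WT and 332, 406, 432 and 467 in T1, or 1.67, 3.21, 1.21 and 1.08 CPM against 122.5, 135.0, 155.5 and 150.9 CPM. The log2 fold change was 6.20 ± 0.18 (adjusted p = 1.1e-13, edgeR), and it lay between 6.04 and 6.66 when any 1 library was left out. This SE is derived from the test's F statistic and is too small for WT counts as few as these, so the size of the fold is less certain than it shows. The next gene, Hoxd11, stood at 79.7, 80.1, 80.6 and 83.9 CPM in WT and at 111.1, 89.4, 105.8 and 104.0 CPM in T1. These groups did not overlap, but the change of 0.34 ± 0.08 stayed under the fold threshold (adjusted p = 0.011, edgeR). Hoxd10 (-0.27 ± 0.08), Hoxd9 (-0.10 ± 0.13) and Hoxd8 (-0.21 ± 0.11) were not called either.

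Of the 6 members tested in these cells 2 were called higher, where 3.63% of all tested genes were, and none lower (2.18% of all tested genes). The other was Hoxd4, at 11, 9, 7 and 4 counts in WT and 15, 23, 25 and 21 in T1 (1.51 ± 0.29, adjusted p = 0.0016 by edgeR). Hoxd3os1, an antisense transcript that overlaps Hoxd3, rose by 0.98 ± 0.19 as well. Hoxd13 and Hoxd3 had too few counts for the fit. Hoxd13 counts were 3, 1, 1 and 0 in WT and 11, 8, 13 and 8 in T1, and those of Hoxd3 were 1, 2, 2 and 1 against 3, 10, 4 and 6. Mean CPM went from 0.38 to 3.50 for Hoxd13 and from 0.51 to 1.95 for Hoxd3. An exact permutation test gave p = 0.029 for each (adjusted p = 0.029), the smallest it can give with 4 and 4 libraries. Hoxd1 was listed at 0 in all 8 libraries. The sum of 8 stroma markers ran from 5735 to 8206 CPM in WT and from 6252 to 7075 CPM in T1. In WT sorted Six2 cells at E18.5 it was 642-806 CPM. In whole WT kidneys it was 4172-5259 CPM under Foxd1-GC and 4709-5809 CPM under Six2-TGC. The sum thus set these cells apart from sorted Six2 cells, but not clearly from whole kidneys, and does not settle their identity. The summed level of 6 macrophage markers, of which 4 were called higher, went from 67.3-161.4 to 154.3-220.3 CPM. That of 9 nephron markers was 430-876 CPM in WT and 440-510 CPM in T1, with 4 of the 8 tested called lower. Their part in the Hoxd results was not tested.

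The T1 effect in sorted cells differed between the lineages for 5 of the 6 members that could be compared. The difference, Foxd1 minus Six2, was 2.52 ± 0.35 for Hoxd12 (adjusted p = 2.2e-05, edgeR), which puts it with the 8.25% of all tested genes called higher. It was negative for Hoxd11 (-1.52 ± 0.13), Hoxd10 (-2.13 ± 0.13), Hoxd9 (-1.26 ± 0.15) and Hoxd8 (-1.07 ± 0.12), where 7.63% of all tested genes were called lower. Hoxd12 and its downstream neighbours thus had differences of opposite sign. Hoxd3 did not pass (0.15 ± 0.63). Lineage, driver, read length, depth and gene set changed together and cannot be told apart in this comparison.

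In whole Six2 kidneys, the posterior genes from Hoxd12 to Hoxd10 were called higher in T1 and those from Hoxd12 to Hoxd11 in T3. That is 3 and 2 of 8 tested members, where 2.88% and 4.34% of all tested genes were called higher. No member was called lower (4.88% and 5.28% of all tested genes). Hoxd12 was at 4.68 and 5.85 CPM in WT, 49.4 and 47.8 CPM in T1 and 29.9 and 31.2 CPM in T3. All mutant libraries lay above both WT libraries, with log2 fold changes of 3.21 ± 0.11 in T1 (adjusted p = 1.9e-05, edgeR) and 2.54 ± 0.11 in T3 (adjusted p = 2.7e-05, edgeR). Hoxd11 was at 40.3 and 29.6 CPM in WT, 65.2 and 64.4 CPM in T1 and 50.9 and 60.02 CPM in T3. The change was 0.89 ± 0.14 in T1 and 0.67 ± 0.14 in T3 (adjusted p = 0.016, edgeR). The T3 call was lost without T3 replicate 2 (0.55, adjusted p = 0.093 by edgeR) and fell under the fold threshold without WT replicate 2 (0.48). Hoxd10 was at 0.59 ± 0.06 in T1, on the fold threshold, and at 0.54 without WT replicate 2, which ended its call. It was at 0.27 ± 0.06 in T3.

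Hoxd9, at 53.2 and 58.0 CPM in WT, differed by -0.07 ± 0.08 in T1 and -0.03 ± 0.08 in T3. Hoxd8 was at 133.1 and 135.9 CPM in WT, 105.3 and 107.6 CPM in T1 and 93.4 and 89.0 CPM in T3. All mutant values lay below WT, but the differences of -0.34 ± 0.05 and -0.56 ± 0.05 (adjusted p = 0.0048 and 0.00043, edgeR) were under the fold threshold. Hoxd13 was low, at 0.26 and 0.30 CPM in WT and 0.07-0.23 CPM in the mutants, and was not called. Counts of the Y-linked gene Ddx3y were 15673 in WT replicate 1 and 0 in WT replicate 2. They were 19243 and 14827 in T1 and 0 in both T3 libraries. Neither comparison with WT was therefore balanced for sex, and the part of sex was not tested. Sex-linked genes were read in whole Six2 kidneys only, so the balance of sex in the other sets was not examined. WT replicate 2 had a summed level of 6 skeletal muscle markers of 56.7 CPM, against 6.31 CPM in the other WT library. The summed level of 8 ureteric tree markers was 691-849 CPM in WT, 548-567 CPM in T1 and 471-538 CPM in T3. That of 9 nephron markers was 3428-3512 CPM in WT, 833-962 CPM in T1 and 796-892 CPM in T3, and that of 6 nephron progenitor markers 310-367, 176-178 and 145-166 CPM. That of 6 macrophage markers was 103.2-105.0, 142.0-149.6 and 141.3-154.4 CPM. Their part in the Hoxd results was not tested. In bulk samples, fewer cells of a type and less RNA per cell cannot be told apart.

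T3 and T1 kidneys did not differ in any member by the main test, in which 1 of 23931 genes was called, so that 0.00418% of all tested genes were higher and 0% lower. The T1 libraries had 19243 and 14827 counts of the Y-linked gene Ddx3y and both T3 libraries had 0, so sex and allele cannot be told apart here. Hoxd12 was nevertheless lower in both T3 libraries than in both T1 libraries (-0.67 ± 0.10, adjusted p = 0.30 by edgeR's quasi-likelihood test). DESeq2, edgeR's exact test and the quasi-likelihood fit without a low-count filter each called it, with log2 fold changes of -0.68, -0.67 and -0.68, as did the main test without either WT library.

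In whole Foxd1 kidneys, the 2 most posterior genes were called higher, of 8 tested members, where 2.65% of all tested genes were. Hoxd12 rose from 3.80, 3.34 and 4.36 CPM to 21.3, 20.4 and 17.7 CPM (2.37 ± 0.11, adjusted p = 1.4e-08 by edgeR). Hoxd13 went from 0.25, 0.29 and 0.09 CPM to 0.59, 0.54 and 0.58 CPM (1.42 ± 0.42, adjusted p = 0.02 by edgeR). Its call was lost without WT replicate 3 (1.07, adjusted p = 0.070 by edgeR) and without T1 replicate 3 (1.41, adjusted p = 0.0505 by edgeR). Hoxd3 was called lower, from 6.35, 4.36 and 6.15 CPM to 2.79, 3.54 and 2.68 CPM (-0.90 ± 0.17, adjusted p = 0.0011 by edgeR), where 7.53% of all tested genes were called lower. Haglr, an antisense RNA next to Hoxd1, and Gm28230, which shares most of its exon length with other genes of the region, were called lower too, at -0.70 ± 0.16 and -0.89 ± 0.16. So were Gm14396 (-0.85 ± 0.23, adjusted p = 0.012 by edgeR) and Gm28793 (-0.75 ± 0.22, adjusted p = 0.019 by edgeR), both between Hoxd10 and Hoxd9.

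The remaining members were at 0.09 ± 0.06 for Hoxd11, -0.32 ± 0.08 for Hoxd10, -0.20 ± 0.05 for Hoxd9 and -0.40 ± 0.06 for Hoxd8, none past the fold threshold. Hoxd1, at the anterior end, was at -0.49 ± 0.29 (adjusted p = 0.21, edgeR). Across the 8 tested genes, the rank correlation of the change with position was -0.93. This is a description over genes of 1 cluster, which are not independent. It was -0.12 and 0.02 in whole Six2 kidneys (T1 and T3), -0.24 and -0.10 in sorted Six2 cells (E14.5 and E18.5) and -0.26 over the 6 genes tested in sorted Foxd1 cells. The summed ureteric tree markers were 905-1060 CPM in WT and 725-793 CPM in T1, nephron markers 3522-3629 CPM against 1820-2423 CPM, and nephron progenitor markers 482-517 CPM against 732-896 CPM. Their part was not tested. 1 T1 library, replicate 1, had 110.9 CPM of skeletal muscle markers, and without it the same 3 members were called.

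In whole kidneys, the T1 effect under Foxd1-GC minus that under Six2-TGC was called lower for Hoxd12 (-0.85 ± 0.18), Hoxd11 (-0.83 ± 0.14) and Hoxd10 (-0.92 ± 0.12), where 3.55% of all tested genes were. Hoxd12 rose under both drivers. Hoxd11 was at 0.89 under Six2-TGC and 0.09 under Foxd1-GC, and Hoxd10 at 0.59 and -0.32, with opposite signs. No member was called higher (4.82% of all tested genes). Driver, read length and depth changed together and cannot be told apart here. The whole Six2 libraries were also not balanced for sex between WT and T1.

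Levels between genes were compared per kb of exon. In WT, Hoxd10 was the most abundant member in sorted Foxd1 cells (57.1 ± 4.4 CPM per kb, SD, n = 4) and in sorted Six2 cells at E18.5 (25.3 ± 3.4, n = 3). In WT whole kidneys it was Hoxd8, at 65.6 ± 0.86 CPM per kb under Foxd1-GC (n = 3) and 49.0 ± 0.72 under Six2-TGC (n = 2). In WT Six2 cells at E14.5, Hoxd12 (30.9 ± 2.8 CPM per kb), Hoxd10 (29.7 ± 2.9) and Hoxd11 (28.3 ± 0.47) did not differ beyond their spread. That holds for exon length only: by longest transcript Hoxd11 came first in this group. The order of all members was the same by both lengths in 4 of the 11 groups. Hoxd12 made up 0.66% ± 0.35 (SD, n = 4) of the summed CPM per kb of 8 members in WT sorted Foxd1 cells and 35.6% ± 3.03 in T1. The share went from 26.3% ± 1.14 to 45.7% ± 0.22 in sorted Six2 cells at E14.5 and from 3.68% ± 0.97 to 14.04% ± 0.64 at E18.5 (n = 3 each). The shares of Hoxd10 in the last pair were 40.5% ± 1.67 and 42.9% ± 0.16.

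**Figure D4:**
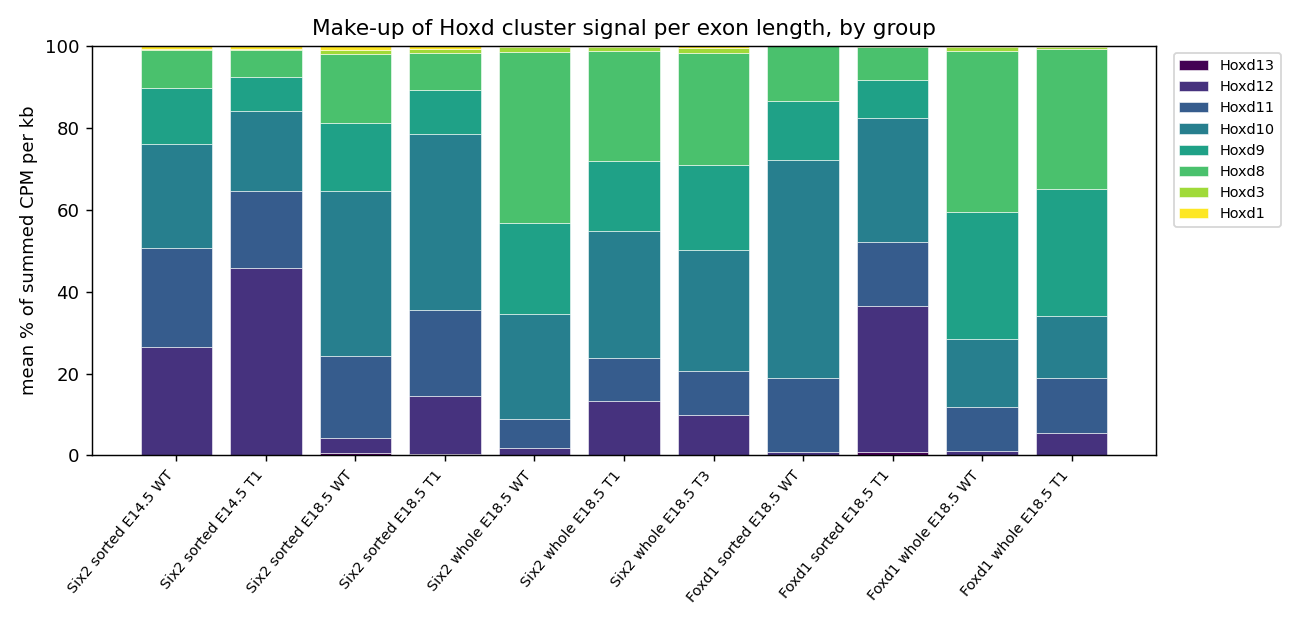
Stacked mean percent (y axis, from 0 to 100) of the summed CPM per kb of exon that each of 8 Hoxd genes contributes, for the 11 groups (x axis); Hoxd4 is left out. Hoxd12 takes 35.6% in T1 sorted Foxd1 cells and 0.66% in their WT.

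Of the genes around the cluster, Lnpk, upstream, and Mtx2, downstream, were not called in any of the 6 comparisons of mutant with WT, with log2 fold changes of -0.11 to 0.17 and -0.21 to 0.12. Evx2, the homeobox gene next to Hoxd13, had 8, 1 and 2 counts in WT and 33, 33 and 14 in T1 in sorted Six2 cells at E18.5 (2.71 ± 0.74, adjusted p = 0.02 by edgeR), and no count in any E14.5 library. Haglr rose in the sorted Six2 cells at E14.5 (1.10 ± 0.15) and E18.5 (1.84 ± 0.19). Hoxd3os1 rose in whole Six2 T1 kidneys (0.85 ± 0.12) and in both sorted Six2 sets (0.97 ± 0.09 and 1.11 ± 0.15). Gm14396 rose in both sorted Six2 sets as well, by 2.02 at E14.5 and 2.40 at E18.5, and Gm28793 rose by 2.69 at E18.5. Reads of these transcripts and of overlapping members cannot be told apart.

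In sorted Six2 cells at E18.5, 8 of 8 tested Hoxd genes were called, beside 11 of 11 Hoxa, 8 of 9 Hoxb and 7 of 7 Hoxc genes. Of all tested genes, 6.14% were called higher and 5.54% lower. The Hoxd13 call was narrow, and Hoxd4 was not tested. In sorted Foxd1 cells, 3.63% of all tested genes were called higher and 2.18% lower. The counts there were 2 of 6 Hoxd, 8 of 8 Hoxa, 0 of 7 Hoxb and 6 of 7 Hoxc genes, with medians of 0.12, 1.88, 0.23 and 1.08. Hoxa11 (1.10 ± 0.09) and Hoxc11 (2.06 ± 0.20) rose there, beside the 0.34 of Hoxd11. Hoxa10 (0.78 ± 0.06) and Hoxc10 (1.09 ± 0.08) rose too, beside the -0.27 of Hoxd10. No difference between clusters was tested.

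Of 15 HOX partner and kidney target genes, 3 were called higher and 4 lower in sorted Six2 cells at E18.5, where 6.14% of all tested genes were called higher and 5.54% lower, and their median was -0.00 on the log2 scale. Among those called, named here after their values were seen, Meis1, a partner of HOX proteins on DNA, rose by 1.26 ± 0.11 and Six2, a factor that keeps progenitors undifferentiated, fell by 1.29 ± 0.11. In sorted Foxd1 cells, 2 of 14 tested were called higher and 2 lower (3.63% and 2.18% of all tested genes), with a median of 0.01, and Meis2, a relative of Meis1, also named after its value was seen, rose by 0.85 ± 0.08. At E14.5, 1 was called higher and 3 lower (4.11% and 2.28% of all tested genes), with a median of -0.03. In whole Six2 kidneys the counts were again 1 and 3, both in T1 (2.88% and 4.88% of all tested genes; median 0.10) and in T3 (4.34% and 5.28%; median 0.14). In whole Foxd1 kidneys 3 were called higher and none lower (2.65% and 7.53% of all tested genes), with a median of 0.18. The medians of all tested genes lay between -0.01 and 0.02.

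Over the 12 sorted Six2 libraries, the protein-coding genes outside the cluster whose log2 CPM followed a member most closely, among 16513, included Hoxa11 for Hoxd9 (r = 0.99), Igf2 and Hoxa11 for Hoxd11 (0.98 each), Anks1b and Ripk3 for Hoxd12 (0.98 each), Kcna6 for Hoxd10 (0.98), Hoxc11 for Hoxd3 (0.99), Bean1 for Hoxd1 (0.96) and Slitrk2 for Hoxd13 (0.91). The points share 2 stages and 2 genotypes, and the correlations are descriptions without a test.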

How the data were processed

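The deposited files are 4 tables of raw read counts per gene, 1 for each of the whole and sorted sets under each driver. Per the study's methods, the authors made polyA libraries (a stranded kit for whole kidneys, a low-input kit for sorted cells), aligned reads with HISAT2 to mm10 and counted with HTSeq without using strand. The annotation release is not given in the sources used here. 55536 of 55806 identifiers had a name in GENCODE vM21, and promoters are RefSeq's.

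Counts were filtered (filterByExpr, minimum count 10, minimum total 15), scaled by TMM and tested with edgeR 4.0.16 (R 4.3.3), quasi-likelihood, in each comparison over all genes. Calls needed an adjusted p under 0.05 and a fold over 1.5 (development: 0.01 and 2; interactions: 0.05). Interactions are not reported for genes without counts in a whole pair of genotypes. CPM use TMM factors of each table. Each SE of a log2 fold change by edgeR is that change divided by the square root of the test's F statistic. It can be too small where a group has few counts. Intervals cover only the spread between libraries. The alternatives were DESeq2 1.42.0, edgeR's exact test, other size factors, no filter, no fold threshold, a replicate block, leaving out each library and transcript in place of exon length. The scripts were tested on simulated data. All 9 members, the flanking and overlapping genes and the lists named above were described by rule. Some genes that the rule would name are not reported here. The members and lists were chosen with earlier results of these data known.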

Additional observations from a re-analysis of the deposited data

Results flagged for a closer look

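Differences of the T1 effect between sets were found for 12 member terms. The members tested were 8 between stages, 6 between sorted lineages and 8 between whole kidneys. Of all tested genes, 3.94%, 8.25% and 4.82% were called higher in these terms and 4.22%, 7.63% and 3.55% lower. Between stages in sorted Six2 cells, E18.5 minus E14.5 was 1.87 for Hoxd12, 1.19 for Hoxd11, 1.18 for Hoxd10 and 0.84 for Hoxd9 on the log2 scale. Between sorted lineages, Foxd1 minus Six2 was 2.52 for Hoxd12, -1.52 for Hoxd11, -2.13 for Hoxd10, -1.26 for Hoxd9 and -1.07 for Hoxd8. Between whole kidneys, Foxd1 minus Six2 was -0.85 for Hoxd12, -0.83 for Hoxd11 and -0.92 for Hoxd10. Hoxd12 thus had opposite signs in sorted cells and whole kidneys. Stage changed together with dissociation, and lineage with driver, read length and depth, and these cannot be told apart. No library stood apart from its group in the 16 sets of 4 values examined.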

How the results depend on the processing

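The labels do not say whether libraries that share a replicate number share anything else. Their deviations from the group means correlated at -0.08 to 0.14 over 19 pairs. In groups of 2 the deviations mirror each other, so these pairs are not independent. With so few libraries per group, the values do not settle whether such libraries are paired. With a replicate block no count of called members changed (for example 8 at E18.5 and 5 at E14.5 in sorted Six2 cells), and Hoxd1 between T3 and T1 (0.000351) and Hoxd13 in the stage term (0.049), both uncalled, changed sign. Without a fold threshold, members called higher went from 5 to 7 in sorted Six2 E14.5 and from 2 to 3 in whole Six2 T3 and sorted Foxd1, members called lower from 0 to 1 in whole Six2 T1, whole Six2 T3 and sorted Foxd1 and from 1 to 4 in whole Foxd1, members called higher with stage from 0 to 1 in WT and from 1 to 3 in T1, and members called lower with stage in WT from 2 to 3, with Hoxd9 (-0.65). DESeq2, no low-count filter and the exact test each called 1 member lower in T3 than in T1 (0 before). DESeq2 and RLE size factors called 2 members higher with stage in T1, and DESeq2 called 1 higher in the whole-kidney lineage term, Hoxd13 (adjusted p = 0.045). That term was also called lower for Hoxd3 by DESeq2 (adjusted p = 0.011) and without a low-count filter (-0.98). At E14.5 in sorted Six2 cells, DESeq2 and the exact test called Hoxd13 (adjusted p = 0.023 and 0.036), and library size only called Hoxd8 (0.62), which also passed in the stage term (0.32, adjusted p = 0.0498). By longest transcript, Hoxd12 was the highest member per kb in 2 groups in place of 3.

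The other changes of sign under these settings were of uncalled values: Hoxd9 in whole Six2 T1 (0.0074) and T3 (0.047) with library size only, Hoxd1 between T3 and T1 (0.0015, exact test), Hoxd8 with stage in WT (0.10 by DESeq2 and RLE, 0.023 by the exact test) and Hoxd11 with stage in T1 (0.095 by DESeq2 and RLE).

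Leaving out each library, the counts of called members ran as follows: 2 to 3 higher in whole Six2 T1, 1 to 3 higher in whole Six2 T3, 0 to 1 lower in whole Six2 T3, 0 to 1 lower in T3 against T1, 4 to 6 higher in sorted Six2 E14.5, 7 to 8 higher in sorted Six2 E18.5, 1 to 2 higher in whole Foxd1, 0 to 1 higher in stage in WT, 1 to 2 higher in the sorted lineage term and 3 to 4 lower in the whole lineage term. Uncalled values that changed sign ranged as follows over these fits: Hoxd9 in whole Six2 T1 (-0.12 to 0.020), Hoxd3 in whole Six2 T1 (-0.23 to 0.45), Hoxd9 in whole Six2 T3 (-0.11 to 0.065), Hoxd13 in T3 against T1 (-1.52 to 0.092), Hoxd9 in T3 against T1 (-0.052 to 0.12), Hoxd1 in T3 against T1 (-0.20 to 0.19), Hoxd8 in stage in WT (-0.068 to 0.050), Hoxd11 in stage in T1 (-0.076 to 0.047), Hoxd13 in the stage term (-0.49 to 0.25) and Hoxd3 in the sorted lineage term (-0.26 to 0.39). Calls were also gained by Hoxd8 in sorted Six2 E14.5 without T1 replicate 2 or 3 or WT replicate 1 (0.59 to 0.61), and in whole Six2 T3 by Hoxd3 without WT replicate 1 (0.73) and by Hoxd8, lower, without T3 replicate 1 (-0.59). The causes were not tested.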
